A study of Mus musculus with 15 samples.

Results

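Foxp3 encodes the forkhead transcription factor that defines regulatory T (Treg) cells, and its transcript was followed in mouse CD4 T cells grown in TH17 or Treg cultures. The gene was found by the Ensembl identifier that maps to its symbol (ENSMUSG00000039521.13). It was 1 of 55421 gene identifiers in the expression table, which held 1 Foxp3 entry. On GRCm38 it lies on chromosome X from 7573644 to 7595245 on the plus strand, and the annotation gives it 10 transcripts. The data were poly(A) RNA-seq of 15 libraries (5 groups of 3), in TPM, a length-corrected share of all transcripts. TPM sums to a fixed total, so it carries no sequencing depth.

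All cultures began from naive CD4 T cells, sorted as CD25- with high CD62L and low CD44, and stimulated with anti-CD3 at 2 µg/ml and anti-CD28 at 1 µg/ml. All received antibodies that block IFNγ and IL-4, and all were harvested on day 5. TH17 cultures had TGFβ at 2.5 ng/ml with IL-6, IL-1β and IL-23 at 10 ng/ml each. Treg cultures had TGFβ at 0.5 ng/ml, or another dose stated elsewhere by the submitters, with IL-2 at 200 U/ml. Wild-type TH17 cultures received DMSO (the vehicle) or Srci1, a compound given only by this code name, which was added at 24 h at a dose not given in the labels. The third TH17 group received DMSO and came from STAT3-fl/fl CD4-cre mice, in which a Cre driven by the Cd4 promoter removes floxed STAT3 in T cells, and it is called the STAT3 knockout below. Wild-type Treg cultures received DMSO or Srci1. A comparison of Treg with TH17 cultures therefore also holds the difference in cytokines and TGFβ dose. Whether the 3 libraries of a group were separate animals or cultures is not in the labels, so each p-value measures the spread among libraries, possibly technical.

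As background, TGFβ signalling through SMAD factors together with IL-2 signalling through STAT5 induces Foxp3 in naive CD4 T cells. IL-6 acts through STAT3 and opposes that induction, and cells given TGFβ with IL-6 turn to the TH17 fate marked by IL-17A (Il17a). FOXP3 protein works with other transcription factors and chromatin enzymes, represses genes such as Il2 and sustains genes such as Il2ra and Ctla4.

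The 250 bases upstream of both RefSeq start sites of Foxp3 are shown because SMAD, STAT, NFAT, CRE and forkhead factors are known regulators of the gene. They run 5′ to 3′ on the plus strand of GRCm38.p6. The first, chrX:7579426-7579675, ends just before the start at 7579676, which 2 annotated transcripts use (Foxp3-204 and Foxp3-208). The second, chrX:7580233-7580482, ends just before the start at 7580483 of Foxp3-202. An annotated exon of Foxp3-206, which begins at 7579567, covers the last part of the first stretch. Capitals mark motif matches.
Foxp3 upstream 1: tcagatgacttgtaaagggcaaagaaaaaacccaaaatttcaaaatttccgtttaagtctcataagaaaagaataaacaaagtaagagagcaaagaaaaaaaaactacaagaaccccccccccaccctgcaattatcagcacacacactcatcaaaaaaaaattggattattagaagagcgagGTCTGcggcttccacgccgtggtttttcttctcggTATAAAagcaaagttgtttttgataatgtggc
Foxp3 upstream 2: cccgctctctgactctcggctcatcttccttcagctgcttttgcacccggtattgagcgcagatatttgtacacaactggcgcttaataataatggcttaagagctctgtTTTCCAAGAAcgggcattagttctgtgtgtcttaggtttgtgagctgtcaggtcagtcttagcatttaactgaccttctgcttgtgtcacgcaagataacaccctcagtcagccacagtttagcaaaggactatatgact
In the first sequence the capitals mark the SMAD motif CAGAC, read on the minus strand, and then the TATA box motif TATAAA, which was added to the search after the sequence was seen. In the second, the capitals join a match to the STAT motif TTCNNNGAA and one to the NFAT motif TGGAAA on the minus strand, which overlap. Both strands were searched, over the 300 bases from 250 before to 50 after each start. Of 32851 RefSeq promoters of that length, 8.3% held the STAT motif, 21.4% the NFAT motif, 49.6% the SMAD motif and 13.6% the TATA motif. The CRE motif TGACGTCA, in 1.8% of promoters, and the forkhead motif TGTTTAC, in 3.6%, matched in neither Foxp3 window. A match describes letters only, and binding was not measured here. Sequence outside these windows, enhancers of Foxp3 included, was not searched, so a missing match does not speak for the whole gene.

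Foxp3 was low in wild-type TH17 cells with DMSO and high in every other group. The wild-type DMSO TH17 libraries held 12.2, 13.6 and 9.37 TPM, a mean of 11.7 ± 2.15 (SD, n = 3). DMSO-treated Treg libraries held 131, 130.9 and 127.1 TPM (129.7 ± 2.23). With Srci1, TH17 libraries held 194, 208.2 and 208.7 TPM (203.6 ± 8.37). STAT3 knockout TH17 libraries held 192, 224.7 and 197.2 TPM (204.6 ± 17.6). With Srci1, Treg libraries held 256.7, 278.6 and 270.1 TPM (268.5 ± 11). The order from low to high was thus TH17 with DMSO, Treg with DMSO, TH17 with Srci1 beside the knockout, and Treg with Srci1. Only the Srci1 TH17 and knockout libraries overlapped in value, and every other pair of groups was separated. In bulk RNA, more Foxp3-expressing cells and more Foxp3 transcript per cell cannot be told apart.

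**Figure D1:**
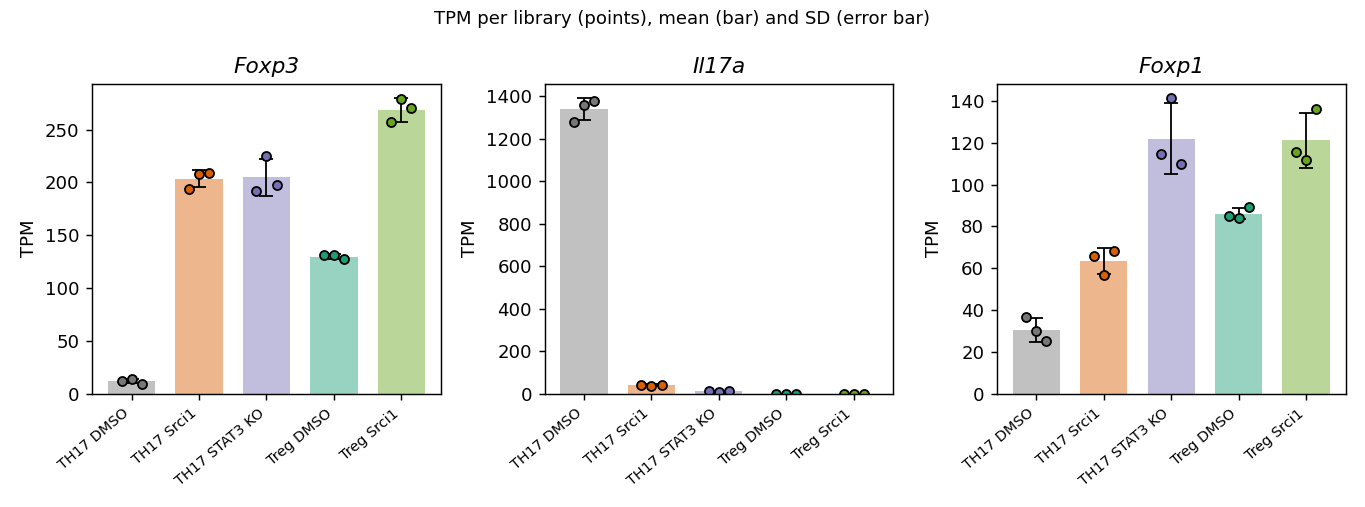
Foxp3, Il17a and Foxp1 in TPM in each of the 15 libraries (points), with the group mean (bars, from 0) and SD (error bars, n = 3). Foxp3 is lowest in wild-type TH17 cells with DMSO (9.37 to 13.6 TPM) and highest in Treg cells with Srci1 (256.7 to 278.6 TPM), Il17a is highest where Foxp3 is lowest, and Foxp1 goes from 30.5 ± 5.63 TPM in the first group to 121.9 ± 17 in the knockout and 121.2 ± 13.2 in Treg cells with Srci1.

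The place of Foxp3 among all transcripts moved with its level. In the DMSO TH17 libraries between 46.2% and 50.4% of the 12800 tested genes lay below it, so it stood near the middle. In Srci1 TH17 libraries 94.3% to 94.8% lay below it, in the knockout 95% to 95.9%, in DMSO Treg libraries 91.4% to 91.7% and in Srci1 Treg libraries 95.8% to 96.2%. Tested genes were those that reached 1 TPM in 3 or more libraries.

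Of the 44 forkhead genes, 14 were tested, and Foxp3 ranked 9th to 12th by TPM among them in DMSO TH17 libraries, where Foxp4 led with 44.9 TPM. It ranked 1st in all 12 other libraries. Foxp3 made up 4.8% of the summed forkhead TPM in DMSO TH17 cells, 35.7% with Srci1, 35.1% in the knockout, 25.2% in DMSO Treg cells and 36.9% in Srci1 Treg cells.

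The first comparison asked what Srci1 did to Foxp3 in TH17 cultures. Foxp3 was 17.4-fold higher by mean TPM with Srci1 than with DMSO, with every Srci1 library above every DMSO library. The fitted difference was 4.02 on the log2(TPM + 1) scale (SE 0.101, 95% interval 3.8 to 4.24, limma adjusted p = 1.17e-11). The adjusted p was the 2nd smallest of all tested genes, and the rise the 3rd largest. In that comparison 33.8% of tested genes were called higher and the median gene moved by 0.21.

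The second comparison set STAT3 loss against wild type in TH17 cultures with DMSO. Stat3 itself was 34.2 ± 3.9 TPM in the knockout and 120.8 ± 18.3 TPM in wild type, in the direction of the label. Foxp3 was 17.5-fold higher in the knockout, a log2 difference of 4.03 (SE 0.101, 95% interval 3.81 to 4.24, limma adjusted p = 9.26e-13), where 30.9% of genes were called higher. Both comparisons use the same 3 DMSO libraries, so their sizes are not independent.

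Set directly against each other, Srci1-treated and STAT3 knockout TH17 cells did not separate in Foxp3 on the deposited scale. The log2 difference was 0 (SE 0.101, 95% interval -0.22 to 0.21, limma adjusted p = 0.974), in a comparison where 49.1% of genes were called in either direction. The interval bounds the difference and does not show the levels to be equal. Under quantile normalization, which forces all libraries to 1 distribution, Foxp3 was lower with Srci1 by 0.197 (limma adjusted p = 0.0442).

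In Treg cultures Foxp3 was also higher with Srci1, by less. The mean was 2.07-fold higher with Srci1, a log2 difference of 1.04 (SE 0.101, 95% interval 0.83 to 1.26, limma adjusted p = 6.12e-06), where 17.1% of genes were called higher. The lowest Srci1 library lay 125.8 TPM above the highest DMSO library. The Srci1 difference in TH17 cells exceeded that in Treg cells by 2.98 (SE 0.143, 95% interval 2.67 to 3.29, limma adjusted p = 2.13e-08 for the interaction), where 14.2% of genes were called in either direction.

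Across culture conditions with DMSO, Foxp3 was 11.1-fold higher in Treg than in TH17 cells, a log2 difference of 3.37 (SE 0.101, 95% interval 3.16 to 3.59, limma adjusted p = 9.42e-12), where 32.3% of genes were called higher. The TH17 cultures with Srci1 or without STAT3 nonetheless held more Foxp3 than the DMSO Treg cultures. The knockout was 1.58-fold above them (log2 difference for Treg minus knockout -0.65, 95% interval -0.87 to -0.43, limma adjusted p = 0.000153), where 17.3% of genes were lower in Treg cells. Srci1-treated TH17 cells were 1.57-fold above them (-0.65, 95% interval -0.86 to -0.43, limma adjusted p = 0.00019), where 20.3% of genes were lower in Treg cells.

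Srci1-treated Treg cells held the most Foxp3. They stood 1.32-fold above Srci1-treated TH17 cells (log2 difference 0.4, 95% interval 0.18 to 0.62, limma adjusted p = 0.00737), where 20.3% of genes were higher. They stood 1.31-fold above the knockout (0.39, 95% interval 0.17 to 0.61, limma adjusted p = 0.00606), where 33.4% of genes were higher. The difference from the knockout shrank to 0.188 and lost its call under median-of-ratios scaling (limma adjusted p = 0.0502). Against DMSO TH17 cells they were 22.9-fold higher (4.42, 95% interval 4.2 to 4.64, limma adjusted p = 6.25e-13), where 44.5% of genes were higher.

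**Figure D2:**
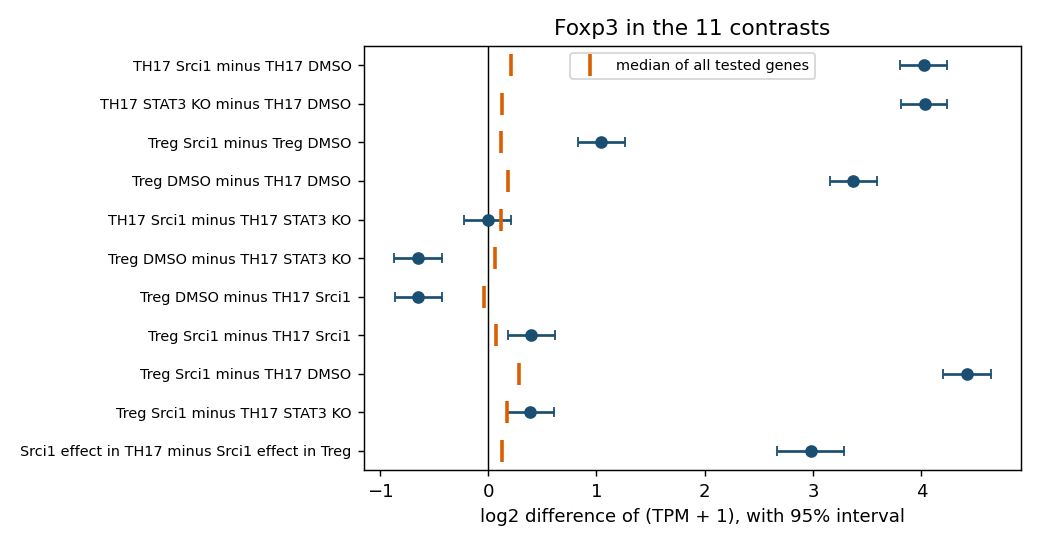
Fitted difference of Foxp3 on the log2(TPM + 1) scale (points) with its 95% interval from limma (bars) for the 11 contrasts, beside the median of all tested genes (orange ticks). The differences from wild-type TH17 cells with DMSO lie between 3.37 and 4.42, and only the interval for Srci1-treated minus knockout TH17 cells spans 0.

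The libraries differed in a way that touches every TPM. Ribosomal protein transcripts took up 28.3 ± 2% of TPM in TH17 cells with DMSO, 28.7 ± 1.2% in the knockout and 22.1 ± 0.6% under Srci1. They took 25 ± 0.2% in DMSO Treg libraries and 20.9 ± 0.5% with Srci1. Median-of-ratios scaling centres the typical gene and gave Foxp3 means of 13.3 ± 1.5, 191.9 ± 11.9, 210.7 ± 6.4, 126.6 ± 2.7 and 240.2 ± 6.1 for TH17 with DMSO, TH17 with Srci1, the knockout, Treg with DMSO and Treg with Srci1. The mean of the knockout exceeded that of Srci1-treated TH17 cells by more on this scale than on the deposited one. Here the libraries of these groups did not overlap (203.32 to 215.03 in the knockout, 178.37 to 200.35 with Srci1). Their difference was not called (-0.135, limma adjusted p = 0.139). On this scale Srci1 in TH17 cells had 16.5% of genes called higher and 16.5% called lower, against 33.8% and 7.08% on the deposited scale. In the knockout the shares were 25.2% and 25.7%, against 30.9% and 18.9%.

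Markers of other cell types were summed as TPM per library. The 8 B cell markers summed to 37.88 to 43.43 TPM in the knockout and to 3.77 to 7.56 TPM in the other groups. The 10 myeloid and dendritic markers summed to 156.41 to 186.89 TPM in the knockout, 150.98 to 158.01 in DMSO Treg, 112.24 to 127.24 in Srci1 Treg, 99.78 to 119.92 in DMSO TH17 and 76.41 to 93.73 TPM in Srci1 TH17 libraries. Their sum was thus higher in the knockout than in either wild-type TH17 group, without overlap. Only 3 of these 10 were tested, and 2 rose and 1 fell in the knockout against DMSO TH17 cells. Of the 5 tested B cell markers 4 rose and 1 fell there, beside 30.9% and 18.9% of all genes. The 8 CD8 and NK markers summed to 89.58 to 117.74 TPM in Srci1 TH17 libraries, 52.2 to 54.26 TPM in DMSO TH17 libraries and 10.8 to 24.22 TPM elsewhere, with Ncr1 at 0 in all groups. Of the 5 CD8 and NK markers tested, 3 rose and 1 fell with Srci1 in TH17 cells, beside 33.8% and 7.08% of all genes. The 5 γδ T cell markers summed to 74.74 to 86.62 TPM in Srci1 Treg libraries and at most 24.94 TPM elsewhere. Of the 3 γδ markers tested, 2 rose and 0 fell with Srci1 in Treg cells, beside 17.1% and 10% of all genes. The 6 CD4 T cell markers summed to 1336.57 to 2110.4 TPM. The part of all these markers in the Foxp3 values was not tested.

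Foxp1, a paralog in the forkhead P subfamily whose protein can pair with FOXP3, followed Foxp3 in part (r = 0.89 over 15 libraries). It was 30.5 ± 5.63 TPM in DMSO TH17 cells, 63.5 ± 6.12 with Srci1 and 121.9 ± 17 in the knockout, and 86.1 ± 2.7 in DMSO Treg cells and 121.2 ± 13.2 with Srci1. Foxp1 rose with Srci1 in TH17 cells by 1.04 and in the knockout by 1.97 on the log2(TPM + 1) scale (limma adjusted p = 3.69e-05 and 1.98e-08). Between those groups, which did not separate in Foxp3 on the deposited scale, it was 0.93 lower with Srci1 than in the knockout (limma adjusted p = 4.28e-05). Its rise with Srci1 in Treg cells, 0.48 (limma adjusted p = 0.0136), lost its call without Treg Srci1 replicate 3 (0.0643).

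Foxp4, another paralog, moved less. It was 44.9 ± 4.79 TPM in DMSO TH17 cells, 44.2 ± 3.98 with Srci1, 53.1 ± 3.53 in the knockout, 68.4 ± 2.45 in DMSO Treg cells and 61.7 ± 5.2 with Srci1. It was 0.6 higher in DMSO Treg than in DMSO TH17 cells (limma adjusted p = 0.00014). Its call in the knockout (0.24, limma adjusted p = 0.0445) was lost in 10 of 16 alternatives, and with Srci1 in TH17 cells it was -0.02 on the deposited scale (limma adjusted p = 0.899) but -0.29, and called, under median-of-ratios scaling (limma adjusted p = 0.0428). Foxp2 never passed 0.0367 TPM as a group mean and was not tested.

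Genes beside Foxp3 on chromosome X did not share its range. Flicr, a long noncoding RNA known as a local regulator of Foxp3 that overlaps it on the same strand (7573600 to 7581027), stayed between 0.71 and 2.33 TPM in all libraries. Its group means ran from 1.2 ± 0.423 TPM in the knockout to 1.81 ± 0.547 TPM in Srci1 Treg cells. It was not called in the Srci1, knockout or DMSO culture comparisons (limma adjusted p = 0.577 in TH17 and 0.358 in Treg cells with Srci1, 0.902 in the knockout, 0.895 between cultures). Flicr shares 853 of its 3583 exon bases with Foxp3 exons, so the counting could move reads between them.

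On the opposite strand, Ccdc22, a gene of the endosomal COMMD complex, overlaps the 3′ end of Foxp3 and Ppp1r3f, a protein phosphatase subunit gene, overlaps its 5′ end. Ccdc22 held 20.9 TPM in DMSO TH17 cells against 26.6 with Srci1 (0.33, limma adjusted p = 0.0162), and this call was lost under median-of-ratios scaling (0.701), quantile normalization (0.77), rescaling with ribosomal protein and mitochondrial genes left out (0.0982) and without TH17 Srci1 replicate 3 (0.0737). Ppp1r3f rose with Srci1 in TH17 cells from 2.74 ± 1.2 to 6.45 ± 1.28 TPM (limma adjusted p = 0.00938). Quantile normalization ended this call (0.0542), and the knockout held 2.29 TPM (0.578). Gm36995, also overlapping, stayed under 1 TPM in every group mean.

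Farther along, Usp27x, a deubiquitinase gene, moved most like Foxp3 (r = 0.79). It was 2.13 TPM in DMSO TH17 cells, 6.67 with Srci1, 3.86 in the knockout, 4.89 in DMSO Treg cells and 11.9 with Srci1. It rose in all 4 comparisons of Srci1, knockout and culture (limma adjusted p = 1.99e-06 for Srci1 in TH17 cells, 0.000413 for the knockout, 8.99e-06 for Srci1 in Treg cells and 2.55e-05 for Treg against TH17 cells). Syp, the synaptophysin gene (r = 0.7), was 4.12 ± 1.33 TPM in DMSO TH17 cells and 10.7 with Srci1, 12.9 in the knockout and 10.3 in DMSO Treg cells, but 7.52 with Srci1 in Treg cells, where its log2 difference was -0.40 (limma adjusted p = 0.309). Clcn5, a chloride channel gene, was 2.94 ± 1.46 TPM in DMSO TH17 cells and 7.58 with Srci1 (limma adjusted p = 0.0022) but 1.99 in the knockout (0.282). Plp2 lay between 503 and 569 TPM in group mean. Of those 4 comparisons, Prickle3 was called in the one between the DMSO cultures (-0.45, limma adjusted p = 0.0316), a call lost without TH17 DMSO replicate 1 or 2, without Treg DMSO replicate 1 or 3, or with no filter on low values (adjusted p = 0.0569 to 0.0855). Cacna1f, Ccnb3 and Akap4 were at or near 0.

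**Figure D3:**
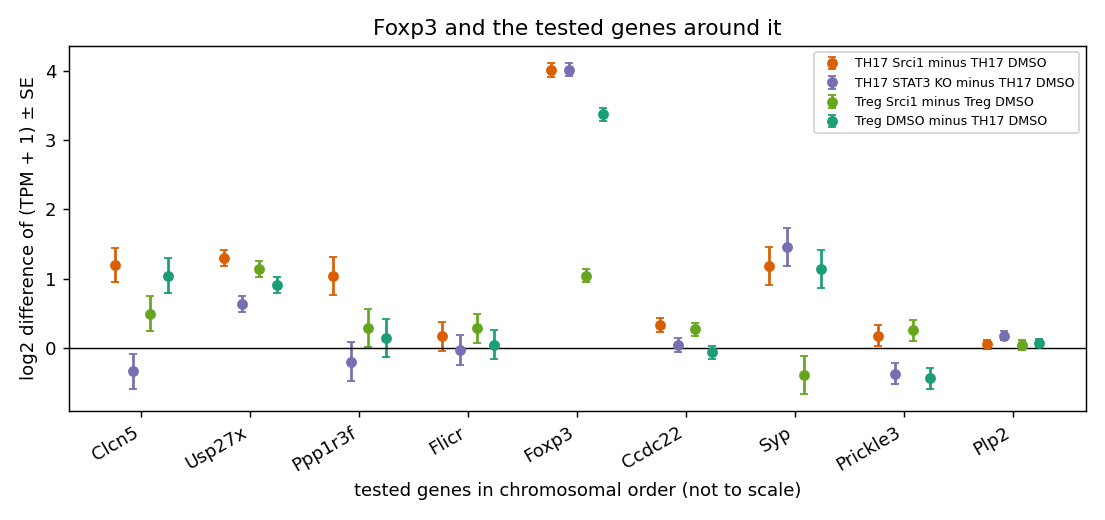
Fitted differences on the log2(TPM + 1) scale ± SE for Foxp3 and the tested genes around it, in chromosomal order, in 4 comparisons (colours). Foxp3 reaches 4.03 while Flicr, which overlaps it, stays between -0.04 and 0.28, and Usp27x is above 0 in all 4.

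Il17a, the gene of the cytokine that names TH17 cells, ran against Foxp3. It was 1338 ± 51.5 TPM in DMSO TH17 cells, 40.4 ± 3.31 with Srci1 and 10.2 ± 1.45 in the knockout, and under 0.25 TPM in every Treg library.

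Of 16 TH17 program genes, 8 fell and 5 rose with Srci1 in TH17 cells (list median -0.34, all genes 0.21), beside 7.08% and 33.8% of all genes. In the knockout 12 fell and 2 rose (median -1.81), beside 18.9% and 30.9% of all genes. In DMSO Treg against TH17 cells 14 fell and 1 rose (median -2.24), beside 12.5% and 32.3%. Between Srci1-treated and knockout cells 13 were higher and 2 lower with Srci1 (median 1.69; 30.6% of genes higher, 18.4% lower). In Treg cells 5 fell and 4 rose with Srci1 (10% of genes lower, 17.1% higher). Il6st, a member of this list, encodes the shared receptor chain for IL-6 and related cytokines. Its transcript rose beside Foxp3 in TH17 cells (r = 0.89 over all 15 libraries, Treg included). It was 5.95 ± 2.24 TPM with DMSO, 23.9 ± 1.08 with Srci1 and 19.4 ± 3.72 in the knockout, and 10.7 ± 0.625 in DMSO Treg cells and 18.3 ± 1.1 with Srci1. Il6st lies outside the naming rule and was chosen after its values were seen.

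The Treg program did not follow Foxp3 as a list. Its 28 genes had a median correlation with Foxp3 of 0.2 over the 15 libraries, from -0.77 to 0.89, with 17 above 0. The libraries share culture and group, and the median over all tested genes was 0.32. With Srci1 in TH17 cells 14 rose and 8 fell (list median 0.3, all genes 0.21), beside 33.8% and 7.08% of all tested genes. Under median-of-ratios scaling 10 rose and 10 fell, beside 16.5% and 16.5%. In the knockout 11 rose and 14 fell (median -0.26, all genes 0.13), beside 30.9% and 18.9% of all genes, where Foxp3 rose as well. In Treg cells with Srci1 6 rose and 12 fell (median -0.14, all genes 0.11), beside 17.1% and 10%, although Foxp3 rose there. DMSO Treg cells exceeded DMSO TH17 cells in 15 and fell below in 8 (median 0.48, all genes 0.18), beside 32.3% and 12.5%.

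Of the members that reached 10 TPM, Nrp1 and Ebi3 followed Foxp3 most closely. Nrp1, which encodes the surface receptor neuropilin-1, was 10.8 ± 3.02 TPM in DMSO TH17 cells, 24.7 ± 0.202 with Srci1, 22.9 ± 4.96 in the knockout, 29.3 ± 0.587 in DMSO Treg cells and 28.8 ± 3.11 with Srci1 (r = 0.89). Unlike Foxp3, Nrp1 did not pass the test for Srci1 in Treg cells (log2 difference -0.03, limma adjusted p = 0.924). Ebi3, which encodes a subunit of IL-35 and IL-27, was 6.73 ± 1.38, 14.9 ± 0.376, 10.3 ± 1.68, 14.3 ± 1.52 and 14.1 ± 1.75 TPM in the same order (r = 0.8).

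Other members stood far higher in the knockout than in Srci1-treated TH17 cells, groups that did not separate in Foxp3 on the deposited scale. Cd83, a surface glycoprotein gene, was 0.453 ± 0.0513 TPM in DMSO TH17 cells, 1.01 ± 0.188 with Srci1 and 28.4 ± 0.295 in the knockout (r = 0.66). Penk, which encodes proenkephalin, was 0.57 ± 0.104, 0.903 ± 0.248 and 33.3 ± 6.26 TPM in those groups (r = 0.58). Nt5e, which encodes the ectoenzyme CD73, was 26.8 ± 5.14, 46.8 ± 6.13 and 131 ± 24.4 TPM (r = 0.44). Between Srci1-treated and knockout cells Cd83 differed by -3.87 and Penk by -4.17 (limma adjusted p = 2.59e-12 and 6.26e-11).

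Members that ran against Foxp3 included Ctla4 and Ecm1. Ctla4, the checkpoint receptor gene that FOXP3 is known to sustain, was 410.5 ± 56.9 TPM in DMSO TH17 cells, 389.8 ± 38.5 with Srci1 and 203.5 ± 25 in the knockout, and 324.2 ± 2.92 in DMSO Treg cells and 248.2 ± 3.71 with Srci1 (r = -0.57). It fell in the knockout by 1.01 and in Treg cells with Srci1 by 0.38 (limma adjusted p = 1.74e-06 and 0.0129), and did not pass with Srci1 in TH17 cells (adjusted p = 0.62). Ecm1, an extracellular matrix protein gene, fell from 1833 ± 164 TPM to 944.9 ± 82.9 with Srci1 and 56 ± 6.49 in the knockout (r = -0.7). Capg, an actin-capping protein gene (r = -0.77), ranged only from 623.7 to 814.8 TPM in group mean. Rgs1, a regulator of G protein signalling, and Swap70 had correlations of -0.76 and -0.59.

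Tigit and its neighbours in the list, named here for the smallest adjusted p after the values were seen, broke from Foxp3 in Treg cells. Tigit, an inhibitory receptor gene, held 97.1, 108.6 and 99.3 TPM in DMSO Treg libraries and 13, 12.7 and 10.3 TPM with Srci1. It fell by 2.99 (limma adjusted p = 1.95e-10) while Foxp3 rose. The checkpoint gene Lag3 fell there from 56.1 ± 5.17 to 10.2 ± 0.397 TPM (limma adjusted p = 2.77e-09), and Tnfrsf9, which encodes 4-1BB, from 1148 ± 19.5 to 389.2 ± 31.2 TPM (limma adjusted p = 7.39e-09). Tigit was also 7.67 ± 0.235 TPM in DMSO TH17 cells, 8.6 ± 0.501 with Srci1 and 57.6 ± 2.09 in the knockout. Srci1-treated TH17 cells thus held Foxp3 above the DMSO Treg level with Tigit near the DMSO TH17 level.

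Itgae, which encodes the integrin CD103, set the STAT3 knockout apart. Its libraries held 1.22, 1.19 and 0.77 TPM in DMSO TH17 cells, 8.85, 7.34 and 7.99 TPM with Srci1 and 127.9, 135.1 and 109.6 TPM in the knockout. Treg libraries held 0.28, 0.14 and 0.48 TPM with DMSO and 0.68, 0.91 and 0.99 TPM with Srci1, all below 1 TPM despite their Foxp3. Gpr83, an orphan receptor gene, moved otherwise, with 9.62 ± 1.52, 25.3 ± 0.87 and 5.7 ± 1.1 TPM in the TH17 groups and 19.9 ± 0.722 and 48.1 ± 0.925 TPM in the Treg groups. It rose with Srci1 in both cultures (1.32 and 1.24, limma adjusted p = 3.03e-06 and 8.05e-06) and fell in the knockout (-0.67, limma adjusted p = 0.000471).

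**Figure D4:**
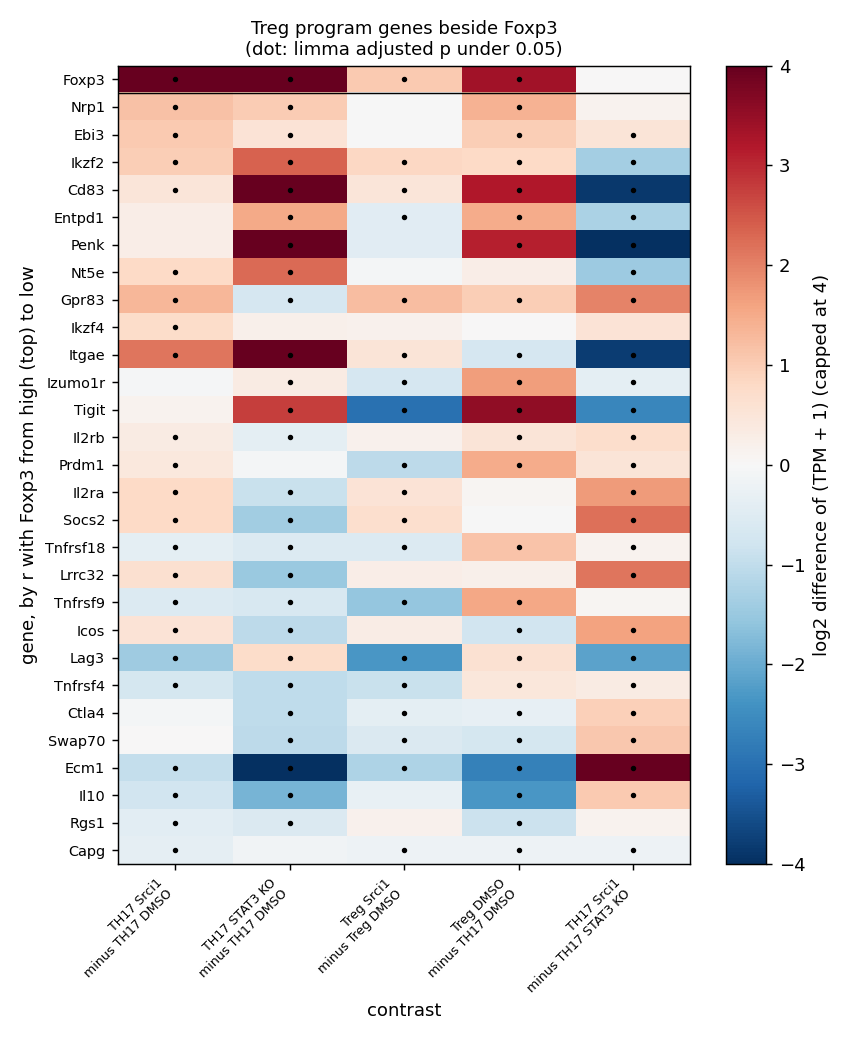
Fitted differences on the log2(TPM + 1) scale (colour, capped at 4) of Foxp3 and the Treg program genes that were tested, ordered by correlation with Foxp3, in 5 comparisons, with a dot where the limma adjusted p is under 0.05. Foxp3 is higher in the first 4. Tigit falls with Srci1 in Treg cells (-2.99) but rises in the knockout (2.76), as Foxp3 does, and Ecm1 falls in the knockout (-5.01).

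Of 9 genes that FOXP3 is known to repress, 3 fell and 1 rose with Srci1 in TH17 cells (median -0.03, all genes 0.21), where 7.08% of all genes fell and 33.8% rose. In the knockout 4 fell and 4 rose (median 0.13, all genes 0.13; 18.9% and 30.9% of all genes), and with Srci1 in Treg cells 4 fell and 3 rose (median -0.41, all genes 0.11; 10% and 17.1%). Il2, the cytokine gene repressed by FOXP3, was 33.4 ± 2.91 TPM in DMSO TH17 cells, 14.1 ± 2.98 with Srci1 and 3.45 ± 0.82 in the knockout (r = -0.79). It fell in both against DMSO (limma adjusted p = 6.78e-05 and 2.48e-09), to unlike levels, while those 2 groups did not separate in Foxp3 on the deposited scale. In DMSO Treg cells Il2 was 11.3 ± 1.42 TPM and with Srci1 8.22 ± 0.613 (limma adjusted p = 0.0734). Satb1, a chromatin organizer gene, fell from 391.4 ± 62 to 27.3 ± 2.11 TPM in the knockout but was 455.4 ± 31 with Srci1 (limma adjusted p = 0.0864 against DMSO). Satb1 differed by 4.01 between those groups (limma adjusted p = 1.77e-12). Ifng was 0.423 ± 0.175 TPM in DMSO TH17 cells, 14.9 ± 2.09 in the knockout and 24.9 ± 1.74 in DMSO Treg cells, all made with IFNγ blocked.

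Of 14 TGFβ and SMAD genes, whose signal induces Foxp3, 10 rose and 0 fell with Srci1 in TH17 cells (median 0.47, all genes 0.21), beside 33.8% and 7.08% of all genes. Under median-of-ratios scaling 4 rose and 2 fell, beside 16.5% of all genes each way. The list mixes transducers of the signal with inhibitors of it. The inhibitor genes Smad7, Smurf2 and Tgif1 were among those that rose on the deposited scale, so the counts give no direction of the signal. In the knockout 9 rose and 1 fell (median 0.42, all genes 0.13; 30.9% and 18.9% of all genes). Set directly against the knockout, 3 were higher and 5 lower with Srci1 (median 0.1, all genes 0.11; 30.6% and 18.4%). The receptor gene Tgfbr2 rose from 24.1 ± 5.07 to 51 ± 2.5 TPM with Srci1 and was 44.5 ± 3.49 in the knockout (limma adjusted p = 1.96e-05 and 4.13e-05). Tgfbr1, its partner chain, was 5.32 ± 1.51 TPM with DMSO and 34.9 ± 7.26 in the knockout (limma adjusted p = 5.07e-08). Smad3, a transducer of the signal, fell in the knockout from 29.7 ± 8.6 to 7.17 ± 0.348 TPM (limma adjusted p = 2.89e-07) and was 26 ± 1.26 with Srci1 (0.484).

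Of 12 IL-2 and STAT5 genes 5 rose and 1 fell with Srci1 in TH17 cells (median 0.1, all genes 0.21), near the 33.8% and 7.08% of all genes, or 4 and 6 under median-of-ratios scaling (16.5% each way). In the knockout 10 fell and 0 rose (median -0.6, all genes 0.13; 18.9% and 30.9%). All 12 were higher with Srci1 than in the knockout (median 0.67, all genes 0.11), on both scales, where 30.6% of all genes were higher on the deposited scale and 24.9% on the other. Under quantile normalization 10 were higher and 0 lower, beside 25.3% and 24.6% of all genes. Il2ra, the IL-2 receptor alpha chain gene and a FOXP3 target, held 785.1, 720 and 571.9 TPM in DMSO TH17 libraries, 1288, 1155 and 1180 TPM with Srci1, and 354.6, 424.8 and 336 TPM in the knockout. Foxp3 was high in both of the latter groups while Il2ra rose in one and fell in the other (limma adjusted p = 4.64e-05 and 6.97e-06). In Treg cells Il2ra rose with Srci1 from 726.7 ± 6.08 to 1066 ± 37.8 TPM (limma adjusted p = 0.00145). Cish, a STAT5 target and feedback inhibitor, was 216.7 ± 13.5, 209.5 ± 6.58 and 64.3 ± 3.25 TPM in the 3 TH17 groups. TH17 cultures had no IL-2 listed among their additions.

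Other activators of Foxp3 include the NR4A receptors, which T cell receptor signals induce, and FOXO1. Of 15 such genes 5 rose and 2 fell with Srci1 in TH17 cells (median 0.27, all genes 0.21), near the 33.8% and 7.08% of all genes, and under median-of-ratios scaling the balance turned to 2 and 3 (median 0; 16.5% each way). In the knockout 6 rose and 3 fell (median 0.23, all genes 0.13; 30.9% and 18.9%), and in DMSO Treg against TH17 cells 9 rose and 2 fell (median 0.72, all genes 0.18; 32.3% and 12.5%). Nr4a1 fell with Srci1 as Foxp3 rose, from 196.8 ± 4.58 to 74.2 ± 3.35 TPM in TH17 cells and from 372.3 ± 10.1 to 131.9 ± 3.26 TPM in Treg cells (limma adjusted p = 2.47e-09 and 2.77e-09). Foxo1 rose from 15.3 ± 2.79 to 30.5 ± 1.83 TPM with Srci1 and was 37.7 ± 3.72 in the knockout (limma adjusted p = 3.41e-05 and 8.35e-07). Rel, the NF-κB subunit gene known to open the Foxp3 locus, was 7.6 ± 1.45, 8.85 ± 0.622 and 22 ± 4.02 TPM in the TH17 groups and 34.4 ± 0.527 in DMSO Treg cells.

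Of 14 genes listed as repressors of Foxp3, 8 rose and 3 fell with Srci1 in TH17 cells (median 0.34, all genes 0.21; 33.8% and 7.08% of all genes), or 3 and 3 under median-of-ratios scaling, near the 16.5% each way of all genes. In the knockout 5 rose and 6 fell (median -0.2, all genes 0.13; 30.9% and 18.9%). Stat3 is itself on this list, and its lower level in the knockout was set by the deletion. Socs3, a feedback inhibitor of cytokine signals, was 82.5 ± 5.27 TPM with DMSO, 154.8 ± 3.58 with Srci1 and 10.2 ± 0.548 in the knockout. Irf1, an interferon response factor gene, was 20.3 ± 2.01, 34.3 ± 4.29 and 150.9 ± 7.69 TPM, so a listed repressor was highest beside high Foxp3 in the knockout. Tbx21, the gene of the TH1 factor T-bet, was 0.603 ± 0.125 and 0.603 ± 0.127 TPM with DMSO and Srci1 but 21.9 ± 2.71 in the knockout. In Treg cells Tbx21 fell with Srci1 from 45 ± 1.72 to 11.8 ± 1.46 TPM (limma adjusted p = 1.71e-07).

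DNA methylation matters for Foxp3 because its conserved enhancer must be demethylated for stable expression. The list of 10 genes mixes methyltransferase with demethylating genes and also holds Mbd2, a methyl-DNA binding protein gene. Its counts therefore give no direction of methylation. Of the 10 genes 5 rose and 0 fell with Srci1 in TH17 cells (median 0.58, all genes 0.21), beside 33.8% and 7.08% of all genes. Under median-of-ratios scaling 5 rose and 1 fell, beside 16.5% of all genes each way. In the knockout 4 rose and 2 fell (median 0.33, all genes 0.13), near the 30.9% and 18.9% of all genes. In DMSO Treg against TH17 cells 7 rose and 2 fell (median 0.7, all genes 0.18; 32.3% and 12.5%). Dnmt1, the maintenance methyltransferase gene, followed Foxp3 (r = 0.89), with 71.7 ± 15.5, 134.2 ± 3.92 and 131.2 ± 11.8 TPM in the TH17 groups and 155.2 ± 4.3 and 202.1 ± 6.4 TPM in the Treg groups. Its Srci1 difference in Treg cells (0.38, limma adjusted p = 0.0314) lost its call without any of several Treg libraries, for example DMSO replicate 2 (0.0894). Tet3, a demethylating oxygenase gene, was 7.19 ± 2.3, 13.4 ± 0.783 and 17.9 ± 3.6 TPM in the TH17 groups.

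Among 16 tested genes for FOXP3 protein turnover and modification, 8 rose and 3 fell with Srci1 in TH17 cells (median 0.32, all genes 0.21; 33.8% and 7.08% of all genes), or 4 and 4 under median-of-ratios scaling (16.5% each way). In the knockout 3 rose and 6 fell (median -0.01, all genes 0.13; 30.9% and 18.9%). Pim1, a kinase gene, was 392.2 ± 36 TPM with DMSO, 548.7 ± 15.5 with Srci1 and 65.3 ± 2.1 in the knockout. Egln3, an oxygen-sensing hydroxylase gene, was lower with Srci1 or without STAT3 than with DMSO in wild-type cells of the same culture. It was 369.8 ± 22.4, 162.8 ± 0.772 and 10.1 ± 1.11 TPM in the TH17 groups and fell from 154.8 ± 1.63 to 15.6 ± 0.658 TPM with Srci1 in Treg cells (limma adjusted p = 7.64e-12). FOXP3 protein was not measured in these libraries.

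Of 25 tested partners of FOXP3 protein, 12 rose and 5 fell with Srci1 in TH17 cells (median 0.31, all genes 0.21; 33.8% and 7.08% of all genes), or 7 and 8 under median-of-ratios scaling (16.5% each way). In the knockout 9 rose and 8 fell (median 0.04, all genes 0.13), beside 30.9% and 18.9% of all genes. Under that scaling 7 rose and 9 fell, beside 25.2% and 25.7%. Gata3, a partner known mainly as the TH2 factor, was 4.36 ± 0.642, 11.8 ± 1.67 and 7.75 ± 0.934 TPM in the TH17 groups and 14.7 ± 0.537 and 19.9 ± 1.51 TPM in the Treg groups. Ikzf3, an Ikaros family gene, was 20.8 ± 5.92, 70.3 ± 2.75 and 85.2 ± 15.4 TPM in the TH17 groups but 26.7 ± 2.24 in DMSO Treg cells. Irf4 was 270.7 ± 50.2, 208.4 ± 11.8 and 75.2 ± 5.62 TPM in the TH17 groups, low in the knockout where Foxp3 was high (limma adjusted p = 5.75e-09).

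The genes whose pattern was most like Foxp3 were ranked by Pearson correlation of log2(TPM + 1) over the 15 libraries, which fall into 5 groups and share cultures and runs of unknown depth. Among 2372 candidates, with group means spanning at least 1 log2 unit and reaching 10 TPM, 106 had r above 0.9 and 5 below -0.9. The 8 most alike were Fam83d (0.973), Cep120 (0.968), Arsb (0.967), Chtf18 (0.963), Ccnb2 (0.961), Racgap1 (0.96), Eme1 (0.959) and Rpa1 (0.958). Of the 8 most opposite, 7 are given here, namely Tspan6 (-0.953), Tpt1 (-0.93), Gem (-0.914), Casp6 (-0.905), Fdx1l (-0.898), Prss12 (-0.897) and Serpinf1 (-0.896). No gene of the Treg program list stood among the 16.

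The most alike genes changed far less than Foxp3. Cep120, a centrosomal protein gene, was 7.13 ± 1.21 TPM in DMSO TH17 cells, 14.8 ± 0.863 with Srci1, 14.8 ± 2.48 in the knockout, 12.9 ± 0.424 in DMSO Treg cells and 17 ± 0.285 with Srci1. The order of its group means was that of Foxp3. Rpa1, a subunit of the single-strand DNA binding complex RPA, was 97.9 ± 13.7, 210.6 ± 7.68, 200.5 ± 6.22, 192 ± 10.8 and 284 ± 10.3 TPM. Ccnb2, a mitotic cyclin gene, was 55.4 ± 3.63, 116.7 ± 3.74, 122.4 ± 4.6, 117.9 ± 5.82 and 165.6 ± 8.06 TPM. Srci1-treated and knockout TH17 cells did not separate in Foxp3 on the deposited scale. Between them neither Cep120 (0.01, limma adjusted p = 0.973) nor Rpa1 (0.07, limma adjusted p = 0.509) passed the test. Both genes were picked by correlation over these same libraries, so this adds no independent likeness to Foxp3.

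Among the opposite genes, Tspan6, a tetraspanin gene, was 17.9 ± 1.81 TPM in DMSO TH17 cells, 4.99 ± 0.0586 with Srci1, 3.33 ± 0.422 in the knockout, 4.39 ± 0.723 in DMSO Treg cells and 2.15 ± 0.419 with Srci1. Tpt1, an abundant translation-related transcript, was 5739 ± 233, 3433 ± 58.5, 3699 ± 66.3, 3429 ± 137 and 2734 ± 192 TPM in that order.

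The ranking rested largely on the low Foxp3 of the DMSO TH17 libraries. Leaving these 3 out, an alternative chosen after seeing the data, replaced all 8 genes on both sides, and the correlation of Casp6 went from -0.905 to -0.02. By Spearman correlation 1 of the 8 most alike and 0 of the 8 most opposite genes were shared with the list above. By group means 3 and 4 were shared, and after median-of-ratios scaling 5 and 5.

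**Figure D5:**
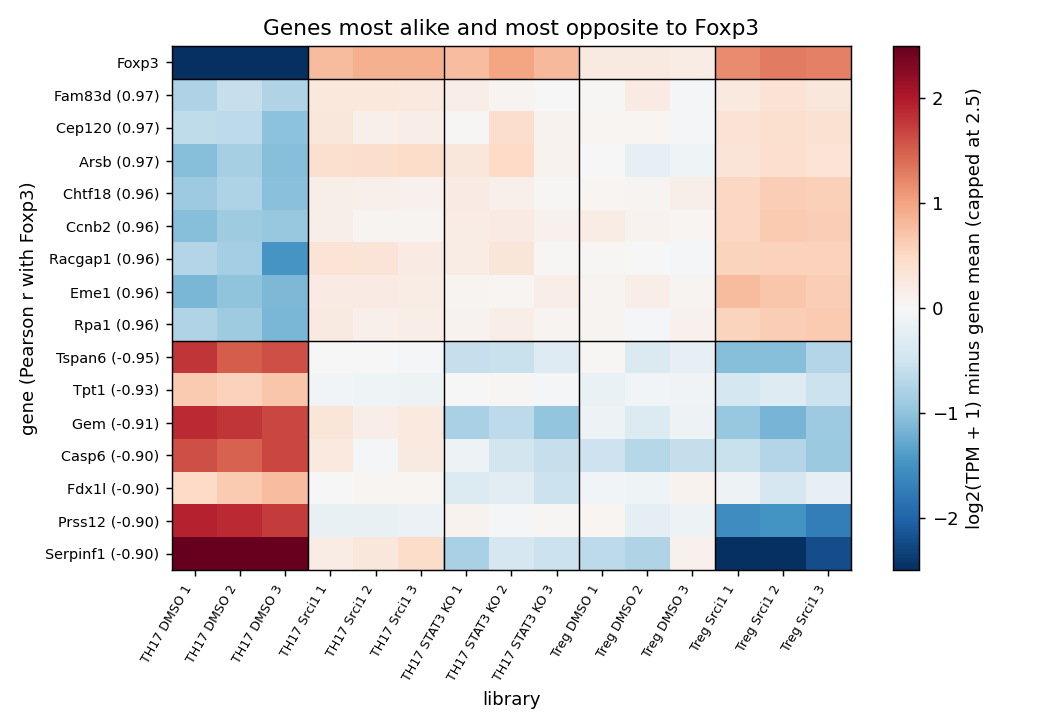
Level of Foxp3 and of the 8 most alike and 7 of the 8 most opposite genes in each of the 15 libraries, as log2(TPM + 1) minus the mean of that gene (colour, capped at 2.5), with the correlation beside each name. The alike genes are lowest in wild-type TH17 cells with DMSO, as Foxp3 is, and the opposite genes are highest there.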

How the data were processed

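Poly(A) RNA-seq of cultured mouse CD4 T cells gave 15 libraries in 5 groups of 3, taken from the labels. The authors deposited 1 table of TPM values for 55421 gene identifiers. The tools were RSEM 1.3.3 and STAR 2.7.9a on GRCm38, per the submitters' processing notes. For the annotation release and strand setting, nothing is stated in the labels, so reads of overlapping genes may be shared. Symbols were found for 55154 identifiers, coordinates came from the GENCODE M21 annotation of GRCm38, and promoters from RefSeq on GRCm38.p6, which held 2 for Foxp3.

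From the deposited TPM, log2(TPM + 1) was computed for the 12800 genes that reached 1 TPM in 3 or more libraries. limma 3.58.1 in R 4.3.3 was fitted with a mean-variance trend to all libraries as 5 group means (10 residual degrees of freedom), with 11 comparisons. Calls were made where the adjusted p (Benjamini-Hochberg) was under 0.05 over all tested genes of a comparison, and "rose", "fell", "higher" and "lower" in counts mean called. Libraries of a group correlated at 0.977 to 0.986. The fit was tested on simulated data. Fold changes on the log2(TPM + 1) scale understate those of low genes, and TPM allows no counting interval or detection floor.

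Foxp3, the gene lists and the comparisons were chosen with earlier results of these data known. Some genes stand on more than 1 list, among them Gata3, Cbfb, Ets1, Ikzf4, Il2rb and Pim2, so the counts of different lists are not independent. The named genes were Foxp3, Stat3, its paralogs and neighbours, the 8 genes of highest and 8 of lowest correlation, the 5 highest and 5 lowest of the Treg program, and up to 4 genes per other list with the smallest adjusted p in a comparison. The ranking left out pseudogenes, gene models without a name, segments of immune receptors and genes of the mitochondrial genome. Some named genes are described only in comparisons other than the one that named them. Tigit, Lag3, Tnfrsf9, Itgae and Gpr83 were named after their values were seen. Alternatives tried were no filter, a filter at 5 TPM, a pseudocount of 0.1, median-of-ratios scaling, quantile normalization, rescaling with 425 genes left out (mitochondrial and ribosomal protein symbols, pseudogenes included), only the groups compared, array weights, a replicate block, adjustment over all comparisons together, and each library left out in turn. Calls of the other named genes under these alternatives were checked after the data were seen. Some genes that the rules name are not reported here.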

Additional observations from a re-analysis of the deposited data

Results flagged for a closer look

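The Srci1 difference of Foxp3 was unequal in the 2 cultures by a test of that difference. It was 4.02 on the log2(TPM + 1) scale in TH17 cells (11.7 ± 2.15 TPM with DMSO, 203.6 ± 8.37 with Srci1) and 1.04 in Treg cells (129.7 ± 2.23 and 268.5 ± 11 TPM), n = 3 libraries each. The interaction was 2.98 (limma adjusted p = 2.13e-08). In TPM the mean rose by more in TH17 cells as well, with starting levels that did not overlap. Whether the starting level bears on the difference was not tested.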

How the results depend on the processing

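Of 182 Foxp3 differences recomputed under an alternative or without a library, 177 kept their direction and their side of the threshold. Srci1-treated against knockout TH17 cells (-0.005) gained a call under quantile normalization (-0.197, limma adjusted p = 0.0442) and, with no call, turned positive with array weights (0.042), without TH17 STAT3 KO replicate 2 (0.064) and without TH17 Srci1 replicate 1 (0.03), between -0.049 and 0.064 without single libraries. Srci1-treated Treg cells against the knockout lost their call under median-of-ratios scaling (0.188, limma adjusted p = 0.0502). For these the cause was not tested. Without single libraries the Srci1 difference ran from 3.88 to 4.126 in TH17 and from 1.016 to 1.075 in Treg cells, the knockout difference from 3.885 to 4.131, and the interaction from 2.837 to 3.082. All 128 counts of Treg program genes stayed within 1.5 times their value. With a replicate block the Srci1 difference in TH17 cells was 4.021 (limma adjusted p = 2.97e-10), and the block changed no Foxp3 call. No pairing of libraries by replicate number was seen, which does not exclude one. Over 30 same-numbered pairs the deviations correlated at -0.171 to 0.128, and 5 of 15 libraries correlated best with their own number. The lists of most alike and opposite genes depended on the measure, with 1, 3, 5 and 0 of the 8 most alike shared by rank correlation, group means, median-of-ratios scaling and without the DMSO TH17 libraries, and 0, 4, 5 and 0 of the 8 most opposite. Depth is unknown from TPM, so low transcripts such as Flicr could not be given a detection limit.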
